A study of Homo sapiens with 45 samples.

Results

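The VEGF family was described here through 10 genes of the 41582 to which the quantified transcripts could be assigned. They are 5 ligands (VEGFA, VEGFB, VEGFC, VEGFD and PGF), 3 receptor tyrosine kinases (FLT1, KDR and FLT4) and 2 co-receptors, the neuropilins NRP1 and NRP2. The genes were chosen by name as one signalling family, with earlier results on these libraries already known, and each gene's level is the sum over its annotated transcripts. Because their levels in the 2 tumour types counted towards the choice, differences between the tumour types are given for these genes as fitted values with standard errors, as a description without a test.

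The study set Ewing sarcoma cell lines beside osteosarcoma cell lines, and asked in one Ewing line what happens when the potassium channel gene KCNN1 is targeted by a short hairpin RNA. Ewing sarcoma is a bone and soft tissue tumour caused by a chimeric transcription factor, such as the EWS::FLI1 protein in the title of the study, whose FLI1 part belongs to the ETS family. Osteosarcoma is a bone tumour whose cells make bone matrix. Poly(A) RNA was sequenced from 13 lines, with 3 libraries each and no treatment named in the labels. The 7 Ewing lines were TC71, SKES1, RDES, MHHES1, EW24, EW3 and A673. The 6 osteosarcoma lines were U2OS, SAOS2, G292, MG63, KHOS and HOS-MNNG, of which the last 2 descend from the HOS line. A further 3 libraries came from A673 cells with the hairpin sh908, whose named target is KCNN1, without doxycycline, and 3 from the same cells with doxycycline, the drug that switches the hairpin on. These 6 libraries share the A673 background and the hairpin, and neither doxycycline-treated A673 without sh908 nor a non-targeting hairpin was analysed here. The labels give neither dose nor time for the drug, and do not say whether the cells are 1 clone or whether the 3 libraries of a group were separate cultures.

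VEGF ligands are secreted dimers that bind receptor tyrosine kinases on target cells, classically the endothelial cells that line blood and lymph vessels. VEGFA signals mainly through KDR (VEGFR2). FLT1 (VEGFR1) binds VEGFA, VEGFB and PGF and also exists as a secreted form that traps ligand. VEGFC and VEGFD act on FLT4 (VEGFR3), the receptor of lymphatic endothelium. Neuropilins bind both VEGF isoforms and class 3 semaphorins, hand them to VEGF receptors or plexins, and are themselves made in membrane-bound and soluble forms. Tumour cells commonly secrete VEGFA, a gene induced by low oxygen through the HIF transcription factors.

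Total estimated counts ran from 15974173 to 51413254 per library over the 45 libraries. Replicate libraries of a group correlated at 0.956 to 0.992 over genes, and none of the 45 pairs was identical. Each Ewing line had 5 or 6 of 6 Ewing markers at 1 TPM or more, against 1 to 4 in the osteosarcoma lines. The list of osteosarcoma and osteoblast markers did not separate the types by number, with 2 to 4 of 7 at that level in the Ewing and 3 to 4 in the osteosarcoma lines, and its summed level overlapped (8.09 to 291.5 against 114 to 4226 TPM). Markers of endothelial cells, which carry most VEGF receptors in tissue, did not appear as a set. Every line had between 2 and 4 of 12 such markers at 1 TPM or more. PECAM1, a defining endothelial adhesion molecule, averaged at most 0.200 TPM in the Ewing lines and 1.41 TPM in the osteosarcoma lines. The summed level of the endothelial markers was 59.1 to 161 TPM in the Ewing lines and 6.55 to 122 TPM in the osteosarcoma lines. EGFL7, a secreted vascular factor, held much of the Ewing sum with 46.9 to 136 TPM. PLVAP was listed at 0 in 6 lines, TEK in 3, VWF in 2 and ROBO4 in 1. The same genes reached 1 TPM or more elsewhere, PLVAP in A673 and RDES, TEK in G292 and VWF in SAOS2. ROBO4 did so in G292, HOS-MNNG, KHOS and MG63. MG63 had PECAM1, CDH5, ROBO4 and EGFL7 at that level.

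The 250 bases upstream of the annotated start are shown for 3 members (RefSeq, GRCh38.p14). VEGFC and NRP2 are shown because their levels spread furthest between the lines, and FLT1 because its upstream stretch held the most copies of GGAA, the core letters recognised by ETS factors such as FLI1. Capitals mark GGAA or its reverse complement TTCC. VEGFC lies on the minus strand of chromosome 4, with the stretch at chr4:176792923-176793172. NRP2 lies on the plus strand of chromosome 2, with the stretch at chr2:205682251-205682500. FLT1 lies on the minus strand of chromosome 13, with the stretch at chr13:28495129-28495378.
VEGFC: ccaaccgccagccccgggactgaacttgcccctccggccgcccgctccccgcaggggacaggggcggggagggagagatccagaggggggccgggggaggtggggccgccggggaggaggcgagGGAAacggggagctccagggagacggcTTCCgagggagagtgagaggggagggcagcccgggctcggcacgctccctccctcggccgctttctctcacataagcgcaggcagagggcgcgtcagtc
NRP2: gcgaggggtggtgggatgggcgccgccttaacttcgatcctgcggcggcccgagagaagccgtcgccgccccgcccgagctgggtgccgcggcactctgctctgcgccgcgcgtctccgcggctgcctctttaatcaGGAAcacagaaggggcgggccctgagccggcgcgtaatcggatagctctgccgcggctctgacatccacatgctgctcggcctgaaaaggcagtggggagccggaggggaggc
FLT1: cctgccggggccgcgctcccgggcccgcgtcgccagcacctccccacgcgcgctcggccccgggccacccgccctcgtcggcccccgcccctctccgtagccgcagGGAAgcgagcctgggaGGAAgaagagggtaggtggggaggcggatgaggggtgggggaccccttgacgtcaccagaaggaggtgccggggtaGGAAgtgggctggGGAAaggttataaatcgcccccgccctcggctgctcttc
GGAA occurred 2 times in the VEGFC stretch, 1 time in that of NRP2 and 4 times in that of FLT1, counting both strands. Of the 35116 promoters in the table, 76.5% held at least 2 copies in the same window, 92.7% at least 1 and 34.3% at least 4, with a median of 3. The doubled motif GGAAGGAA was in 3.06% of all promoters and in 0 of the 7 members with an entry. FLT1 was thus above that median, and VEGFC and NRP2 below it. No entry was used for VEGFA, FLT4 or NRP1.

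Among the ligands, VEGFA, VEGFB and PGF were present in all 39 libraries of the 13 lines, VEGFC was present in osteosarcoma lines and close to 0 in Ewing lines, and VEGFD was close to 0 everywhere. The map of mean levels shows this split, with VEGFC as the one ligand whose level separated the tumour types without overlap.

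**Figure D1:**
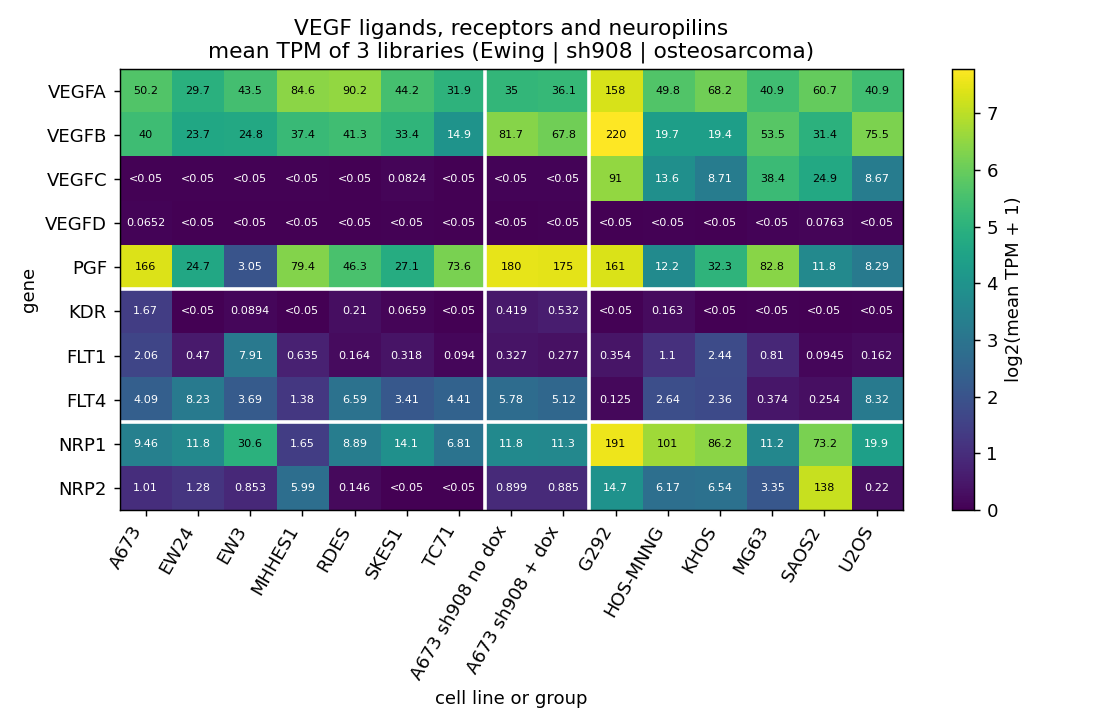
Mean TPM (transcript abundance corrected for length and scaled to the same total in each library, printed in each cell) of the 10 genes in rows, over the 3 libraries of each line or A673 sh908 group in columns, coloured by log2(mean TPM + 1). The VEGFC row is dark across all Ewing and sh908 columns and light in the 6 osteosarcoma lines, where it runs from 8.67 to 91.0 TPM, while VEGFD and KDR stay near 0 in almost every column.

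VEGFC (chr4:176683538-176792922), the lymphatic growth factor, had 0 to 0.139 TPM in the 21 Ewing libraries with a median of 0.0187 TPM, and 7.43 to 100.3 TPM in the 18 osteosarcoma libraries with a median of 18.1 TPM. The Ewing values rest on 22 estimated counts over all 21 libraries, 10 of which were at 0, against 19688 counts over the 18 osteosarcoma libraries. No Ewing library came near the lowest osteosarcoma library. By line, G292 was highest with 91.0 ± 11.8 TPM (SD, n = 3), followed by MG63 with 38.4 ± 2.57, SAOS2 with 24.9 ± 4.41, HOS-MNNG with 13.6 ± 1.51, KHOS with 8.71 ± 1.14 and U2OS with 8.67 ± 0.419. The ranges of KHOS and U2OS overlapped, and those of the other neighbours in this order did not. The fitted difference, Ewing minus osteosarcoma, was -10.03 on the log2 scale (SE 0.83).

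VEGFA (chr6:43770211-43786487) had the narrowest range of line means in relative terms, with a highest mean 5.33 times the lowest, against 14.8 times for VEGFB and more for PGF, VEGFC, FLT1, FLT4, NRP1 and NRP2. VEGFD and KDR had lines at 0 and gave no ratio. Its level was 20.2 to 99.5 TPM in the Ewing libraries (median 46.8) and 35.6 to 191 TPM in the osteosarcoma libraries (median 59.3), so the groups overlapped over most of their range. G292 stood highest at 158 ± 28.2 TPM (SD, n = 3), with RDES at 90.2 ± 8.13 and MHHES1 at 84.6 ± 8.21 next. The lines from A673 down to U2OS, with means of 40.9 to 50.2 TPM, overlapped with their neighbours in the order. The fitted tumour type difference was -0.55 on the log2 scale (SE 0.36), and -0.12 without G292.

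VEGFA in EW3 rested on 1 library. Replicate 1 had 89.4 TPM, and replicates 2 and 3 had 20.7 and 20.2 TPM, the lowest values of all Ewing libraries. DDIT4, a stress and hypoxia induced regulator of mTOR signalling, moved with it, at 77.7 TPM in replicate 1 against 11.5 and 12 TPM. Of 20 hypoxia target genes, 10 were highest in that library, among them BNIP3, PDK1 and MXI1, while LDHA and ENO1 were lowest there. The part of the hypoxia response in this difference was not tested. Without this library the tumour type difference of VEGFA was -0.65 (SE 0.41).

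**Figure D2:**
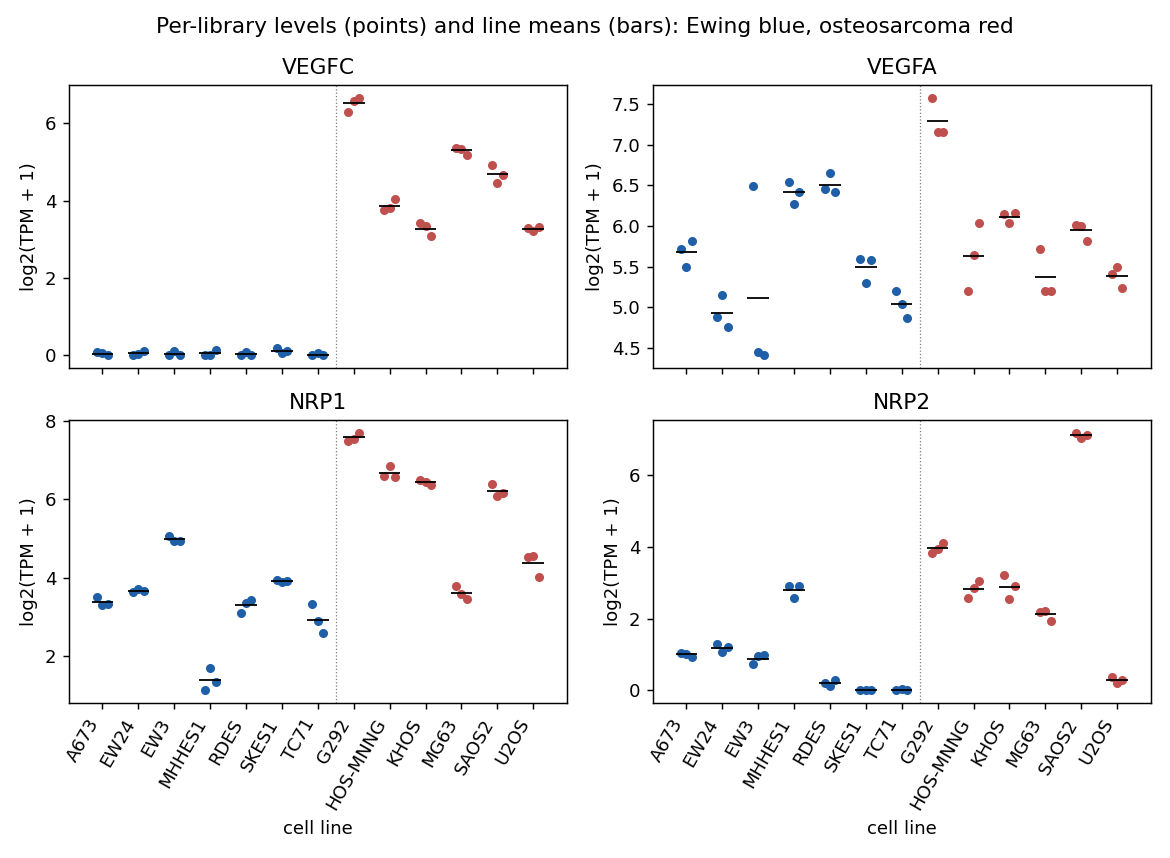
Level of VEGFC, VEGFA, NRP1 and NRP2 in each library (points) as log2(TPM + 1), with the mean of each line as a bar, for 7 Ewing lines (blue) and 6 osteosarcoma lines (red). VEGFC separates the colours without overlap, VEGFA does not, and EW3 replicate 1 stands far above the other EW3 points for VEGFA.

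PGF (chr14:74941830-74955764), the placenta growth factor that binds FLT1, was the most abundant ligand in A673, TC71 and MG63. A673 had 166 ± 75.9 TPM (SD, n = 3) and G292 had 161 ± 97.2, while EW3 had 3.05 ± 0.428 and U2OS 8.29 ± 0.680. Its replicates were wide: A673 had 116, 253 and 129 TPM, G292 had 49.1, 219 and 216, and MHHES1 had 33, 105 and 100.4. Most neighbours in the order of lines therefore overlapped. The tumour types did not differ in a steady direction, with a fitted value of 0.19 (SE 0.85) that became -0.38 without A673.

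VEGFB (chr11:64234584-64239264), a ligand of FLT1, was above every Ewing line in 3 osteosarcoma lines. G292 had 220 ± 18.3 TPM (SD, n = 3), U2OS 75.5 ± 4.45 and MG63 53.5 ± 5.05. SAOS2 had 31.4 ± 2.62 TPM, within the Ewing range. HOS-MNNG with 19.7 ± 3.36 TPM and KHOS with 19.4 ± 1.04 had lower means than all Ewing lines except TC71, which had 14.9 ± 0.561. The remaining Ewing lines had means of 23.7 to 41.3 TPM. The fitted difference was -1.30 (SE 0.51) and shrank to -0.45 without G292. VEGFD (chrX:15345596-15384413), the other FLT4 ligand, reached at most 0.133 TPM in any of the 39 libraries, from 16 estimated counts in the Ewing and 18.1 in the osteosarcoma libraries, and was not tested.

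The summed level of the ligands was 71.3 TPM in EW3 and 78.1 TPM in EW24 at the low end and 630 TPM in G292 at the high end. In 9 of the 13 lines the same ligand was highest in all 3 libraries. VEGFA was that ligand in RDES, SKES1, HOS-MNNG, KHOS and SAOS2, with 42.2% to 53% of the sum. PGF led in A673 (64.8%), TC71 (61.1%) and MG63 (38.4%), and VEGFB led in U2OS (56.6%). In the other 4 lines the leading ligand changed when 1 library was left out. EW3 had VEGFA first with 60.9% over its 3 libraries, but without replicate 1 VEGFB led with 53.6%. MHHES1 had VEGFA first with 42%, and PGF led with 47% without replicate 1. EW24 had VEGFA first with 38%, while without replicate 2 PGF and VEGFA were at 27.3 and 27.2 TPM. G292 had VEGFB first with 34.9%, and without replicate 1 PGF and VEGFB were at 217 and 212 TPM.

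The receptors were low in all lines. Their summed level was 2.03 to 11.7 TPM in the Ewing lines and 0.368 to 8.51 TPM in the osteosarcoma lines, and in every line the ligands exceeded the receptors in summed TPM. FLT4 had the highest TPM of the receptors in 6 of the 7 Ewing lines and in 3 of the 6 osteosarcoma lines (U2OS, SAOS2 and HOS-MNNG), and FLT1 in EW3, G292, KHOS and MG63. In KHOS the means were close, with FLT1 at 2.44 and FLT4 at 2.36 TPM. Its replicate 3 had more FLT4 (2.21 TPM) than FLT1 (1.84 TPM).

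FLT4 (chr5:180601506-180650298) had 1.20 to 9.34 TPM in the Ewing libraries with a median of 4.27. The osteosarcoma libraries ranged more widely, from 0.115 to 8.64 TPM with a median of 1.27. U2OS, at 8.32 ± 0.322 TPM (SD, n = 3), overlapped with EW24 at 8.23 ± 0.968, the highest Ewing line. G292, SAOS2 and MG63 had 0.125 ± 0.0130, 0.254 ± 0.0855 and 0.374 ± 0.0551 TPM, below every Ewing line. The 3 osteosarcoma lines low in FLT4 were the 3 with the most VEGFC. The fitted difference was 0.95 (SE 0.83).

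FLT1 (chr13:28300346-28495128) was highest in EW3, with 10.7, 6.30 and 6.76 TPM. KHOS followed with 2.44 ± 0.540 TPM (SD, n = 3), A673 with 2.06 ± 0.367 and HOS-MNNG with 1.10 ± 0.283, and the other lines were below 1 TPM. The fitted difference of 0.82 (SE 1.18) turned to -0.73 without EW3. KDR (chr4:55078481-55125595), the main VEGFA receptor of blood vessel endothelium, was measured in A673 at 1.33, 1.68 and 2.0 TPM. No other line averaged over 0.210 TPM, the value of RDES, which rests on 71 counts over its 3 libraries. EW24 had 1 count and MHHES1 4, and in TC71 all 3 libraries were at 0. KDR and VEGFD did not pass the filter on low counts over the lines, so 8 of the 10 members entered the tumour type fit.

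Both neuropilins were higher in most osteosarcoma lines. NRP1 (chr10:33177493-33334667) had 1.18 to 32.5 TPM in the Ewing libraries (median 9.76) and 10.02 to 207 TPM in the osteosarcoma libraries (median 82.4). G292 with 191 ± 13.9 TPM (SD, n = 3), HOS-MNNG with 101 ± 11.3, KHOS with 86.2 ± 3.64 and SAOS2 with 73.2 ± 8.18 lay above every Ewing line. EW3, at 30.6 ± 1.62 TPM, exceeded U2OS at 19.9 ± 4.19 and MG63 at 11.2 ± 1.38. MHHES1 was lowest with 1.65 ± 0.532 TPM. The fitted difference was -3.39 (SE 0.73).

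NRP2 (chr2:205682501-205798131), the neuropilin of lymphatic vessels and of SEMA3F signalling, was dominated by SAOS2 with 145, 130 and 140 TPM. G292 followed with 14.7 ± 1.51 TPM (SD, n = 3), and KHOS, HOS-MNNG and MG63 had 6.54 ± 1.71, 6.17 ± 1.18 and 3.35 ± 0.432. U2OS went against the other osteosarcoma lines with 0.220 ± 0.0681 TPM, below the means of MHHES1, EW24, A673 and EW3. Among the Ewing lines, MHHES1 had 5.99 ± 0.897 TPM and the other lines at most 1.28 ± 0.168. SKES1 and TC71 were close to 0, with means of 0.00767 and 0.00833 TPM that rest on 2 and 1 estimated counts. MHHES1 was thus the line with the least NRP1 and the Ewing line with the most NRP2. The fitted difference of -4.89 (SE 1.56) was -2.73 without SAOS2. In bulk libraries, fewer expressing cells and less RNA per cell cannot be told apart.

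HOS-MNNG and KHOS, the pair of common origin, overlapped in their ranges of VEGFA, VEGFB, VEGFD, FLT4 and NRP2 and were apart for the other 5 members. Among the 30479 genes above 0 TPM in any of these 6 libraries, 41.6% had ranges that did not overlap, a share close to that of the members. NRP1 was higher in HOS-MNNG, with 93.6 to 114 against 82.3 to 89.6 TPM, as was KDR, with 0.148 to 0.179 against 0 to 0.0277 TPM. VEGFC was higher in HOS-MNNG, with 12.6 to 15.4 against 7.43 to 9.61 TPM. PGF was higher in KHOS, with 30.7 to 34.5 against 9.84 to 14.4 TPM, and FLT1 was higher in KHOS, with 1.84 to 2.88 against 0.866 to 1.41 TPM.

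Transcript shares within a gene are also given as a description, since they are formed from the same levels in the same tumour types. The NRP1 transcripts of 2238 and 2133 bases end early and encode soluble neuropilin without the membrane anchor. Together they made up 56.9% ± 7.81 of NRP1 TPM in the Ewing lines (SD, n = 7) and 24.8% ± 10.5 in the osteosarcoma lines (SD, n = 6). Further short transcripts of 2502 to 2607 bases, averaging at most 1.11 TPM each over the 13 lines, were counted among the other transcripts. Whether those encode a soluble form was not tested. The Ewing lines ranged from 45.2% in TC71 to 64.3% in A673, and the osteosarcoma lines from 6.74% in G292 to 36% in SAOS2, a difference of 32.2 percentage points. The line means did not overlap, while single libraries did, with 38.2% to 71.8% in the Ewing and 6.07% to 39.96% in the osteosarcoma libraries. In absolute terms, soluble NRP1 transcripts averaged 6.55 TPM (0.968 to 14.5) in the Ewing lines and 15.3 TPM (3.15 to 26.3) in the osteosarcoma lines, which overlapped. The other NRP1 transcripts averaged 5.34 TPM (0.684 to 16.1) and 65.2 TPM (8.10 to 178). Soluble transcripts exceeded the others in 5 of the 7 Ewing lines, and not in TC71 or EW3. HOS-MNNG and KHOS, which share their origin, had soluble shares of 18.6% and 28.7%.

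**Figure D3:**
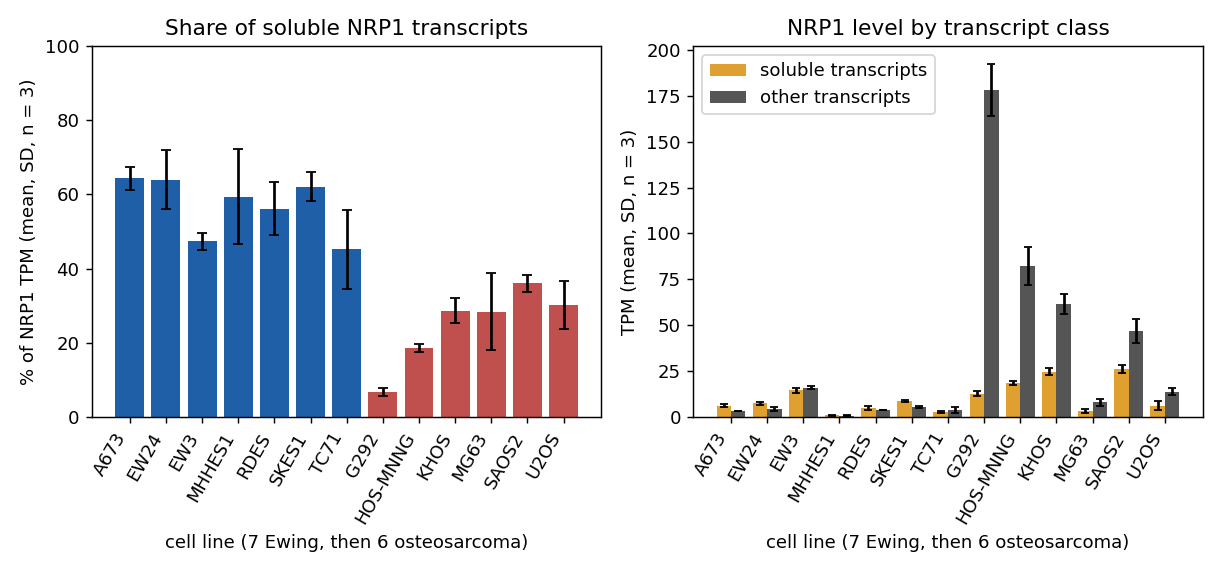
Left, share of NRP1 TPM in soluble transcripts per line as mean and SD of 3 libraries. Right, NRP1 level in TPM of soluble and of all other transcripts, mean and SD of 3 libraries. Ewing lines (blue at left) lie at 45.2% to 64.3% and osteosarcoma lines (red) at 6.74% to 36%, while the grey bars at right, the other transcripts, carry the height of G292, HOS-MNNG, KHOS and SAOS2.

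The NRP1 transcript with the highest mean TPM over the 13 lines, a mean set largely by the osteosarcoma lines, encodes the full-length protein. It held 18.5% ± 13.9 (SD, n = 7) in the Ewing and 48.8% ± 8.6 (SD, n = 6) in the osteosarcoma lines. Shares of 1 gene depend on each other, so this is not a separate result. For the transcripts of VEGFA, VEGFB, PGF and NRP2 with the highest mean over the 13 lines, the differences were -1.47, 3.03, 3.16 and -8.18 percentage points, and the line means of the tumour types overlapped for each. NRP2 could be compared in 4 Ewing and 5 osteosarcoma lines, and its transcript was chosen by a mean that SAOS2 dominates. That transcript held 38.4% of NRP2 in SAOS2 but 0.123% in EW24, 0.501% in MHHES1 and 0.657% in KHOS. All shares are model estimates among overlapping transcripts and carry more error than gene sums.

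FLT1 was mostly estimated as soluble transcripts where it was deep enough, at 84.2% ± 5.56 (SD, n = 3) in A673, 79.9% ± 4.99 in EW3, 87.8% ± 1.52 in HOS-MNNG and 96.8% ± 3.75 in KHOS. Only lines with at least 30 counts in every library are given. VEGFA is spliced into forms of different length that differ in heparin binding, and these classes were chosen after their values were seen. The VEGF165 pair of transcripts held at most 28.6% of VEGFA in the 21 Ewing libraries (median 14.8%) and at most 6.69% in the 18 osteosarcoma libraries (median 0.063%). Its estimate was unsteady within lines, from 0.0059% to 11% in EW24 and from near 0 to 26.8% in TC71, so the libraries of the tumour types overlapped. The freely diffusing VEGF121 pair held 18.5% to 37% of VEGFA in the Ewing and 25.3% to 54.8% in the osteosarcoma libraries. The matrix-bound VEGF189 pair held 0.621% to 24.4% and 5.80% to 28.8%. In each pair the transcripts had the same TPM in every library to within 0.1%, so the estimates could not separate them. The VEGFA transcript with the highest mean, of 2569 bases, is in none of these pairs. It held 27.9% to 41.5% of VEGFA in the Ewing and 28.1% to 49.1% in the osteosarcoma lines. Another transcript outside the pairs, of 3554 bases, averaged 3.23 TPM over the lines, against 2.32 TPM for each VEGF165 transcript of 3537 bases. Whether VEGF165 reads were assigned to these other transcripts was not tested, so the low osteosarcoma shares describe the VEGF165 pair only.

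Of 8 tested genes for VEGF ligand processing and matrix release, 4 were lower and 0 higher in the Ewing lines (edgeR, adjusted p under 0.05), with a median log2 fold change of -1.57 beside -0.064 for all genes. This list and those that follow were chosen with earlier results of the same contrast known, so their counts and p-values are not independent evidence of a direction. Among all 22000 genes tested 14.4% were called, 5.96% higher and 8.4% lower. On the log2(TPM + 1) scale limma called 1509 genes higher and 1115 lower, beside 1312 and 1847 by edgeR. ADAMTS3 and CCBE1 form the complex that activates VEGFC. ADAMTS3 averaged 0.401 TPM in the Ewing and 8.32 TPM in the osteosarcoma lines, a log2 difference of -4.41 (SE 1.17, edgeR adjusted p = 0.024). CCBE1 averaged 0.249 and 12.7 TPM, a difference of -5.77 (SE 1.13, edgeR adjusted p = 0.0052). It reached 1 TPM in G292, MG63, SAOS2 and U2OS. HOS-MNNG and KHOS were below 1 TPM for CCBE1, although their VEGFC was 13.6 and 8.71 TPM. MMP2, a matrix protease, averaged 32.7 and 536 TPM and differed by -4.14 (SE 1.03, edgeR adjusted p = 0.018). The listed genes, MMP2 included, summed to 88.2 TPM in HOS-MNNG and 103 TPM in KHOS. Both sums lie within the Ewing range of 29.9 to 123 TPM.

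Of 13 neuropilin ligands and plexins, 6 were lower and 0 higher in the Ewing lines, with a median of -1.04. SEMA3E, the semaphorin that signals through PLXND1, averaged 0.0254 and 1.69 TPM (-6.13, SE 1.03, edgeR adjusted p = 0.0023). It reached 1 TPM only in G292 and U2OS. The plexins PLXNA4 and PLXNA2, which pair with neuropilins, differed by -5.84 (SE 1.39, edgeR adjusted p = 0.014) and -5.52 (SE 1.48, adjusted p = 0.025). Of 23 genes that carry the receptor signal, 5 were lower and 1 higher. The one higher gene was PRKCB (12, SE 0.97, edgeR adjusted p = 2.4e-05), a protein kinase C activated downstream of KDR in endothelium, with 55.3 to 233 TPM in the Ewing lines and at most 0.132 TPM in the osteosarcoma lines. The lower genes with the largest differences were the phosphatases PTPRJ (-2.94, SE 0.76, edgeR adjusted p = 0.021) and PTPRB (-2.87, SE 0.73, adjusted p = 0.020), and PRKCA (-2.64, SE 0.57, adjusted p = 0.0086).

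Of 10 oxygen sensing genes, 2 were lower and 1 higher in the Ewing lines, with a median of -0.30. EPAS1 (HIF2A) averaged 0.555 TPM in the Ewing and 48.4 TPM in the osteosarcoma lines (-6.10, SE 0.89, edgeR adjusted p = 0.00098). HIF1A averaged 70.1 and 202 TPM (-1.63, SE 0.26, edgeR adjusted p = 0.0016), and no Ewing line reached the lowest osteosarcoma line. HIF3A, some of whose isoforms dampen the response, was higher in the Ewing lines with 1.76 against 0.164 TPM (3.34, SE 0.63, edgeR adjusted p = 0.0043). Of 20 hypoxia target genes, 7 were lower and 0 higher, with a median of -0.90. They included NDRG1 (-5.55, SE 0.71, edgeR adjusted p = 0.00042), BHLHE40 (-4.66, SE 1.0, adjusted p = 0.0087) and ADM (-3.49, SE 0.79, adjusted p = 0.011), a vasoactive peptide. Among 12 other angiogenic ligands and inhibitors, 4 were lower and 0 higher, with a median of -2.40: ANGPT2, the TEK ligand (-6.04, SE 1.57, edgeR adjusted p = 0.022), the inhibitor THBS1 (-5.78, SE 0.98, adjusted p = 0.0024) and PDGFB (-4.55, SE 1.40, adjusted p = 0.045) had the largest differences. Endothelial markers had 1 of 11 higher and 3 lower, EMCN, a sialomucin, at 5.65 and ROBO4, TIE1 and PECAM1 at -9.22, -5.60 and -2.63 on the log2 scale. Of 2 lymphatic endothelial markers tested, 0 were called. Of the tumour markers, 5 of 6 Ewing markers were higher, with the largest differences for CCK, LIPI and NR0B1 (11.45, 9.06 and 7.68 on the log2 scale). Of 5 osteoblast markers 3 were lower, SPP1, RUNX2 and COL1A1 (-8.71, -5.11 and -4.29).

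The mean of log2(TPM + 1) over the 20 hypoxia target genes was 4.0 to 4.58 in the Ewing and 4.85 to 5.66 in the osteosarcoma lines. VEGFA overlapped between the tumour types although this mean did not. Within lines, the deviations of VEGFA and of the hypoxia mean from their line means correlated at Pearson 0.46 and Spearman 0.63 over 39 libraries, and at Pearson 0.52 without EW3 replicate 1. The points share library depth and normalisation. For PGF the correlation with the hypoxia mean was -0.13 by Pearson and by Spearman. The VEGFA and PGF deviations correlated at Pearson -0.17 and Spearman -0.34, and at Pearson -0.29 without EW3 replicate 1.

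**Figure D4:**
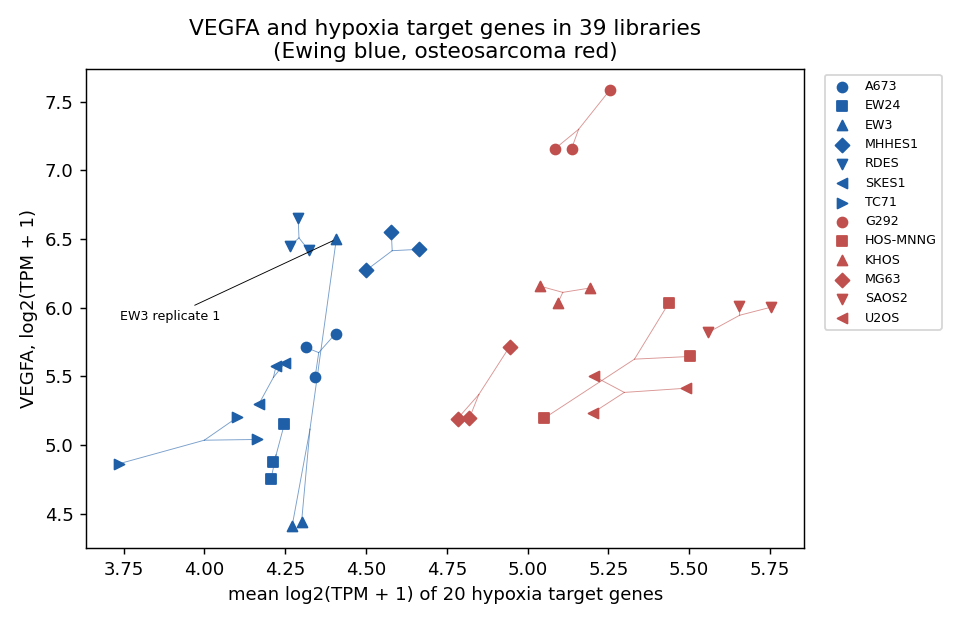
VEGFA as log2(TPM + 1) against the mean log2(TPM + 1) of 20 hypoxia target genes in 39 libraries (points, 1 marker per line, joined to the line mean), with Ewing in blue and osteosarcoma in red. The line means span 4.0 to 4.58 for Ewing and 4.85 to 5.66 for osteosarcoma on the horizontal axis, while the colours overlap on the vertical axis, and EW3 replicate 1 lies far above the other EW3 libraries.

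The hairpin comparison was checked at its target. KCNN1 had 37.8, 35.3 and 18 TPM in the uninduced libraries and 10.2, 13.7 and 7.75 TPM in the induced ones, so every induced library was below every uninduced one. The edgeR difference was -1.53 (SE 0.52) with an adjusted p of 1, and -1.46 (SE 0.13, edgeR adjusted p = 0.0013) with the replicate number as a block. No gene of 14252 passed an adjusted p of 0.05 without the block, 94 had an unadjusted p under 0.05 and DESeq2 called 2. With the block 73 genes were called (0.512%).

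No member passed the test for doxycycline in either fit. In simulated counts, the fit without the block called 10.4% of 2-fold and 70.2% of 4-fold changes. Of the 8 members tested, 0 had an unadjusted p under 0.05 (0.66% of all genes did), and with the block 1 did, beside 13.2% of all genes. That one was VEGFB, with 76.1, 77.8 and 91.1 TPM in uninduced and 54.8, 81.1 and 67.3 TPM in induced libraries (-0.25, SE 0.10, edgeR adjusted p = 0.33 with the block). VEGFA had 27.8, 27.4 and 49.7 TPM in uninduced and 32.1, 32.2 and 44 TPM in induced libraries (0.10, SE 0.16). In both groups replicate 3 was highest. PGF differed by -0.01 (SE 0.25), NRP1 by -0.01 (SE 0.24), NRP2 by 0.05 (SE 0.50) and FLT4 by -0.17 (SE 0.35). FLT1 (-0.72, SE 0.60) and KDR (0.40, SE 0.70) were low in these libraries, with 5.49 to 29.1 counts per library for FLT1 and 17 to 69 for KDR. VEGFC and VEGFD were close to 0 in both groups, with at most 3 counts in any library, and not tested. Among the pathway lists 0 genes were called without the block. With it, FURIN, the convertase that cleaves VEGFC and VEGFD, rose by 0.57 (SE 0.09, edgeR adjusted p = 0.036), and SEMA3F, the NRP2 ligand, fell by 0.60 (SE 0.11, edgeR adjusted p = 0.044).

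**Figure D5:**
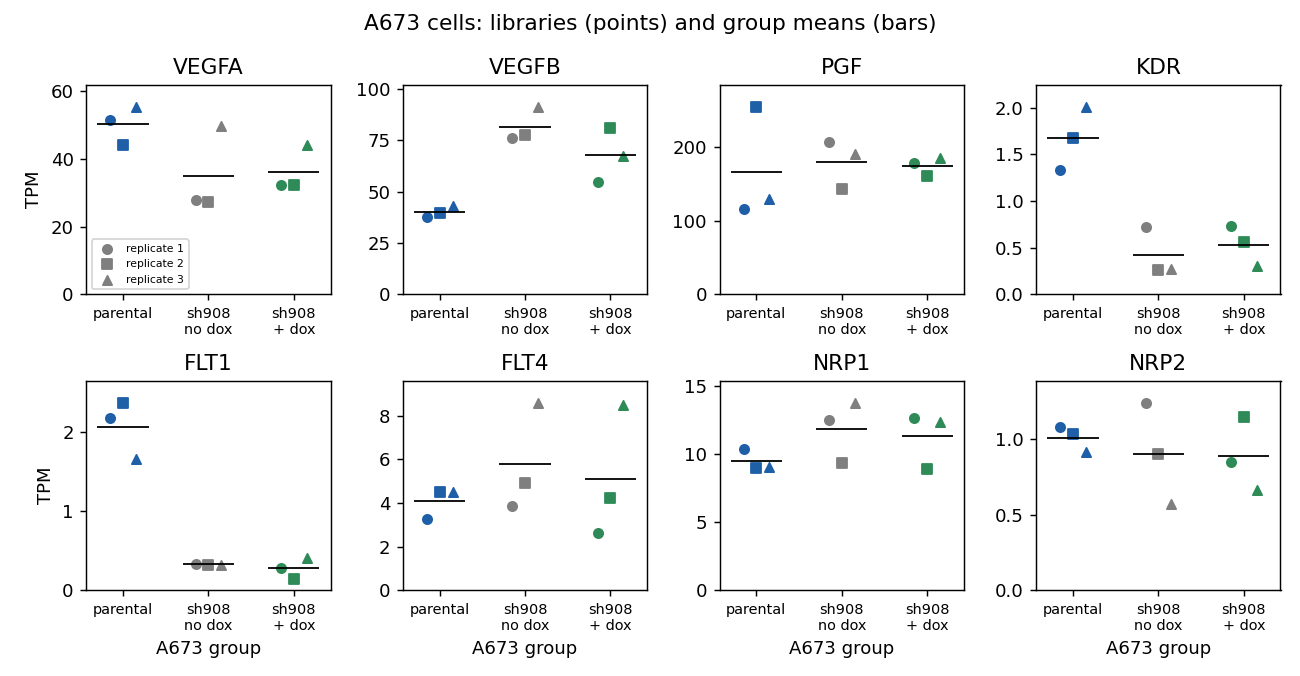
TPM of 8 members for A673 without the hairpin and for sh908 cells before and after induction, with 1 point per library (marker shape gives the replicate number) and a bar for the mean. VEGFB is higher and FLT1 and KDR are lower in both sh908 groups than in parental A673, while the sh908 groups overlap with each other for all 8 genes.

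Before induction, the sh908 cells already differed from parental A673. VEGFB was 76.1 to 91.1 TPM in the uninduced against 37.5 to 42.8 TPM in the parental libraries, without overlap, and rose by 1.51 on the log2 scale of counts (SE 0.15, edgeR adjusted p = 0.0061). FLT1 had 0.333, 0.324 and 0.323 TPM against 2.18, 2.36 and 1.65 TPM and fell by 1.99 (SE 0.45, edgeR adjusted p = 0.032). FLT4 was called higher (0.95, SE 0.23, edgeR adjusted p = 0.039), but its TPM values of 3.86, 4.92 and 8.57 overlapped with the parental 3.29, 4.5 and 4.49. KDR had 0.723, 0.259 and 0.274 TPM against 1.33, 1.68 and 2.0 TPM, a difference of -1.47 (SE 0.54) that did not pass (edgeR adjusted p = 0.11). NRP1 differed by 0.57 (SE 0.19, edgeR adjusted p = 0.082), PGF by 0.61 (SE 0.36, adjusted p = 0.28), VEGFA by -0.18 (SE 0.14, adjusted p = 0.42) and NRP2 by 0.02 (SE 0.40, adjusted p = 0.98). DESeq2 called KDR and NRP1 as well (adjusted p = 0.042 and 0.032).

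Thus 3 of 8 members were called, 2 higher and 1 lower, beside 15.1% of all 15778 genes (8.71% higher and 6.42% lower). The call count changed with the libraries used. It was 4, 2 and 8 genes when parental replicate 1, 2 or 3 was left out, and no member was called then. VEGFB had edgeR adjusted p of 0.067 to 0.070 in these fits. Without uninduced replicate 1, 2 or 3 the count was 1377, 266 and 10202, and FLT1 and FLT4 lost their calls without uninduced replicate 2 (edgeR adjusted p = 0.11 for both). On the scale of log2(TPM + 1) the median gene was 0.32 lower in the uninduced libraries, and limma called 383 genes higher and 2887 lower, beside 1375 and 1013 by edgeR. On that scale VEGFB differed by 1.01 and FLT1 by -1.20 (limma adjusted p = 0.0078 for both), KDR by -0.92 (limma adjusted p = 0.022) and FLT4 by 0.36 (limma adjusted p = 0.40). Depth and fragment size differed as well. The difference between a transcript's length and its effective length was 180 to 190 bases in the parental and 140 to 158 bases in the uninduced libraries, with totals of 26814221 to 37815602 and 16619617 to 22870909 counts. Their part in these results was not tested. This comparison shares the uninduced libraries with the doxycycline comparison.

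Other genes of the pathway also differed between uninduced and parental cells, beside a median of 0.01 for all genes. Of 7 ligand processing genes 1 was higher (MMP2, by 1.03) and 0 lower. Of 21 receptor signalling genes 3 were higher (HSPB1, NOS3 and PRKCB) and 3 lower (PTPRJ, RCAN1 and PTPN11), and of 10 oxygen sensing genes EGLN3 was higher and EGLN1 lower. Of the neuropilin ligands and plexins 2 of 10 were higher and 0 lower, namely PLXND1 (1.09, SE 0.12, edgeR adjusted p = 0.0070) and SEMA3F (0.93, SE 0.13, adjusted p = 0.012). Of 19 hypoxia target genes 3 were higher and 0 lower (NDRG1 by 1.56, BHLHE40 by 1.25 and BNIP3 by 0.72), beside a median of 0.40. On the TPM scale the mean log2(TPM + 1) of the 20 hypoxia genes did not point the same way, at 4.21 ± 0.404 (SD, n = 3) in the uninduced and 4.35 ± 0.0474 (SD, n = 3) in the parental libraries. Uninduced replicate 3 stood high at 4.67, against 3.99 and 3.96 in replicates 1 and 2. Of 11 other angiogenic genes 0 were higher and 1 lower, which was THBS1. It fell from 6.64, 10.3 and 8.23 TPM to 0.896, 0.197 and 0.505 TPM (-3.50, SE 0.54, edgeR adjusted p = 0.014). Among 8 endothelial markers 3 were higher and 2 lower, and the higher ones included MMRN2 (by 2.85) and EGFL7 (by 0.65). PLVAP, a protein of endothelial diaphragms, rose from 2.16, 2.99 and 2.17 TPM to 27.2, 32.7 and 122 TPM (4.93, SE 0.50, edgeR adjusted p = 0.0061), whereas TEK fell by 4.63 (SE 0.70, adjusted p = 0.014) and PECAM1 by 1.76 (SE 0.43, adjusted p = 0.039). The 1 lymphatic marker tested, PDPN, was higher by 1.76, as was 1 of 6 Ewing markers, NKX2-2, by 1.21, and 0 of 4 osteoblast markers were called.

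The NRP1 soluble share was 64.3% ± 3.04 (SD, n = 3) in A673 without the hairpin, 77.6% ± 8.13 before and 80.2% ± 2.64 after induction in sh908 cells. Soluble transcripts had 6.10, 9.05 and 9.10 TPM in these groups and the other NRP1 transcripts 3.36, 2.77 and 2.20 TPM.

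Genes whose line means followed a member most closely were sought over the 13 lines among 15699 genes reaching 5 TPM, by Pearson r of log2(TPM + 1), as a description. VEGFC was followed by ARSJ, BDNF and MIR193A (0.98, 0.98 and 0.96), all near the pattern of presence in osteosarcoma and absence in Ewing lines. NRP2 was followed by PIGK, GLIS3 and EOMES (0.93, 0.92 and 0.91) and NRP1 by TRNT1, RAB5A and PLS3 (0.90, 0.90 and 0.89). VEGFA was followed by RIGI, ERAP2 and MACF1 (0.87, 0.86 and 0.86), VEGFB by RPL13P5, PHF1 and DSTNP2 (0.94, 0.93 and 0.93), and PGF by ANGPTL2, PRPH and HAUS8 (0.87, 0.83 and 0.82). FLT4 was followed by PPIL1, SDK1 and XPNPEP3 (0.92, 0.87 and 0.87), and FLT1 by CXCR4, EPB41L4A-AS1 and LOC107984198 (0.88, 0.84 and 0.80). The KDR matches POU1F1, TPSD1 and TMEM233 (0.99, 0.98 and 0.97) rest on A673 as the one line in which KDR exceeded 1 TPM. Between members, VEGFC correlated with NRP1 at 0.72 and with NRP2 at 0.66, and FLT4 ran opposite to VEGFC (-0.71) and to NRP2 (-0.78). These points share the split between tumour types. The matches depended on the pseudocount. With 0.1 in place of 1 TPM, 17 of the 27 stayed among the first 3 of their member. LOC107984198 fell to rank 22 (r = 0.66) for FLT1, SDK1 to rank 10 for FLT4, and PIGK, GLIS3 and EOMES to ranks 5, 7 and 10 for NRP2. For VEGFC, ARSJ fell to rank 7 and BDNF to rank 5, while MIR193A rose to rank 1. Without HOS-MNNG, 19 of the 27 stayed.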

How the data were processed

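Per the labels' protocols, TruSeq Stranded mRNA libraries were prepared from NucleoSpin RNA Plus extracts. The submitters' processing notes name fastp 0.19.5, kallisto 0.46.2, hg38 and GRCh38.p14, without their roles. Per the file headers, the deposited tables give for each of 177816 transcripts an estimated count, a TPM value (abundance corrected for length and scaled to the same total in each library by the authors) and the lengths behind them, and the deposited effective length is a value in bases of another kind. Transcripts were joined to genes by RefSeq accession (GRCh38.p14, version ignored, 95.6% matched), and estimated counts and TPM were summed per gene. The share of counts without a gene was 0.915% to 1.60% per library.

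Gene counts were rounded and tested with edgeR 4.0.16 (quasi-likelihood, filterByExpr, TMM, Benjamini-Hochberg over all genes tested, R 4.3.3), with the 3 libraries of a line summed for the tumour types, so that the line is the replicate. The standard errors and p-values between tumour types treat HOS-MNNG and KHOS as independent lines, although both descend from the HOS line. DESeq2 1.42.0, limma 3.58.1 on log2(TPM + 1), other size factors, no filter, the replicate block and leaving out lines or libraries were alternatives. The limma fits and the fit without EW3 replicate 1 were chosen after seeing the data. Transcript shares are given for lines with at least 30 counts in every library. The exact permutation test planned for them is not reported, because the levels of these genes in the tumour types counted towards their choice. The fits were tested on simulated counts with known changes. Of 2-fold changes, 4% were called between tumour types, 10.4% for doxycycline and 37.5% for uninduced against parental. Of 4-fold changes, 36%, 70.2% and 77.6% were called, so changes of this size can be missed. Depth limits genes near 0.

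The members and gene lists were chosen with earlier results of these data known. All 10 members are described. Of each list up to 3 genes with the largest rise and 3 with the largest fall at an adjusted p under 0.05 are named, as are the 3 genes most like each member whose highest line mean was at least 1 TPM. LDHA, ENO1, BNIP3, PDK1, MXI1 and DDIT4 were named for EW3 after their values were seen, as were PECAM1 and EGFL7 among the endothelial levels. In the sh908 groups, libraries with the same number deviated together (correlations over genes of 0.50, 0.53 and 0.79), which was taken as pairing. Replicates 1 and 2 correlated as highly across numbers (0.52 and 0.49), so the numbers set apart only replicate 3. Nothing in the labels says that replicates are separate cultures, so p-values measure the spread between these libraries, which may be technical.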

Additional observations from a re-analysis of the deposited data

Results flagged for a closer look

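In 4 of 20 groups of line means (10 genes in 2 tumour types, on log2(TPM + 1)), the highest line lay further from its neighbour than Dixon's 95% limit allows. Chance alone flags about 1 in 20 groups of unselected values. These genes were chosen with their levels known, so the limit only picks out lines to look at and is no test. KDR in A673, at 1.67 TPM, stood apart from the other Ewing lines, none of which exceeded 0.210 TPM. KDR in HOS-MNNG, at 0.163 TPM, stood apart from the other osteosarcoma lines at a level that rests on 51 estimated counts over its 3 libraries. NRP2 in MHHES1, at 5.99 TPM, stood apart from the other Ewing lines, whose highest was EW24 at 1.28 TPM. VEGFC in SKES1, at 0.0824 TPM, stood apart from the other Ewing lines, at a level that rests on 8 estimated counts.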

How the results depend on the processing

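Between the tumour types, DESeq2 called 5404 genes and a mean per line with the replicate block, which leaves out the spread between lines, called 16743, beside 3159. Leaving out a line changed the sign for PGF (range -0.38 to 0.92) and FLT1 (-0.73 to 1.79). The VEGFA leading transcript share ranged from -3.04 to 1.17 percentage points. VEGFC, NRP1 and NRP2 kept their direction under every alternative run, and the NRP1 soluble share difference was 24 to 34.4 points. For doxycycline, DESeq2 called 2 genes and the replicate block 73, beside 0. Differences near 0 changed sign: PGF was 0.0085 and NRP1 0.0086 with DESeq2, both were 0.0085 with relative log expression size factors, PGF was 0.00065 with the replicate block, and NRP2 was -0.0042 with limma. Leaving out a library gave -0.16 to 0.23 for PGF, -0.21 to 0.17 for NRP1, -0.33 to 0.48 for NRP2, -0.015 to 1.22 for KDR and -0.49 to 0.075 for FLT4. For uninduced against parental, DESeq2 called 4169 genes, and leaving out a library gave 2 to 10202, beside 2388. NRP2 was -0.094 with limma and -0.40 to 0.31 without a library. The numbers did not pair these libraries (same-number correlations 0.02, 0.06 and 0.12); with the replicate block 319 genes were called, VEGFB kept its call (edgeR adjusted p = 0.038), FLT1 and FLT4 did not (0.066 for both) and NRP2 was -0.062. The cause of these changes was not tested. Low counts limit VEGFC in Ewing lines, VEGFD in all lines, and KDR in all lines but A673.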
